A study of Mus musculus with 2 samples.

Results

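The 42 genes described here encode the folding machinery of the endoplasmic reticulum (ER) and the unfolded protein response that watches over it. They were taken as a fixed list of gene symbols and looked up in both count tables, which hold 37681 gene identifiers. All 42 were found, and 41 were measured, meaning that they had at least 10 counts in at least 1 library, as 16682 identifiers did. The exception was Agr3.

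Secreted proteins enter the ER through the Sec61 channel and are folded there by chaperones, glycan-binding lectins and enzymes that form disulfide bonds. When unfolded proteins build up, the membrane sensors IRE1, PERK and ATF6 raise the capacity for folding and for ER-associated degradation, which sends proteins that cannot be folded to the proteasome. Cells of the gastric corpus differ in what they pass through this machinery: endocrine cells make small peptide hormones and granins, chief cells make zymogens such as pepsinogen, and surface and neck cells make large disulfide-linked mucins.

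The study set out to learn where histamine-making cells of the corpus come from. One library was made from sorted Hdc-CFP-positive cells of the stomach (the sorted library, or sorted cells) and 1 from epithelium of the corpus after removal of Hdc-CFP cells (the depleted library, or depleted cells). Both came from C57BL/6 mice that were Hdc-CFP transgenic, so the depleted cells carry the transgene too. Hdc encodes histidine decarboxylase, and the cyan fluorescent protein stands for its activity, so any cell in which the transgene is active could enter the sort. Unsorted or non-transgenic samples are not analysed here, and the sources used here do not give the number of mice per library.

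Gene counts came to 10736538 for the sorted library, with 19091 genes detected, and to 50928524 for the depleted library, with 20664. Hdc stood at 8750.2 CPM (read counts scaled to a common library size) in the sorted library against 21.2 CPM in the depleted one, 413-fold higher [388 to 441], as the labels say. All 7 listed markers of histamine-making and other endocrine cells were higher in sorted cells by 2-fold or more, with summed levels of 83179 CPM against 254 CPM. All 6 measured surface mucous cell markers were lower (4338 CPM against 162036 CPM), as were all 6 parietal cell markers (1432 CPM against 8389 CPM), all 7 macrophage markers (8.95 CPM against 2737 CPM) and 3 of 6 chief cell markers (16930 CPM against 66753 CPM). Of 6 mast cell markers, which matter because mast cells use Hdc as well, 4 were higher in sorted cells (219 CPM against 84.4 CPM). Tff1, a further surface mucous marker, had 0 counts in both libraries. It thus adds nothing to the sums of surface mucous markers or of secreted products given here. Whether its reads were lost in counting was not tested. Of 9 measured markers of pancreatic acinar cells, 8 were higher in the sorted library, which held 15428 CPM of them against 5586 CPM in the depleted library, nearly all of that sum Clps. Cpa1 of that list had 0 counts in both libraries, and Cpb1 and Pnlip had under 10. Each group is 1 library, so there is no replicate check and no test: brackets give 95% intervals that cover counting error only, and every difference is one between these 2 libraries. In such bulk samples fewer cells of a type and less RNA per cell cannot be told apart.

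The list as a whole sat near the median of all genes. The median member had a log2 difference (sorted minus depleted) of 0.028, against -0.047 over all measured genes. Of the 41 measured members, 22 (53.7%) lay within 1.5-fold either way, where 36.2% of all measured genes did. A fold of at least 2 with an interval clear of 1 was reached by 8 members (19.5%) in the higher direction, against a background of 21.9%, and by 7 (17.1%) in the lower direction, against 22.3%. Both shares lay near the background. Since most members are abundant, the same was read among genes with at least 1000 counts in at least 1 library, a limit chosen after the values were seen. There 22 of 37 members (59.5%) lay within 1.5-fold against 46.7% of genes, 5 (13.5%) were higher against 9.64%, and 6 (16.2%) were lower against 25.4%. The middle 50% of members spanned 0.86 on the log2 scale, against 1.85 for all measured genes and 1.35 for genes with at least 1000 counts.

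**Figure D1:**
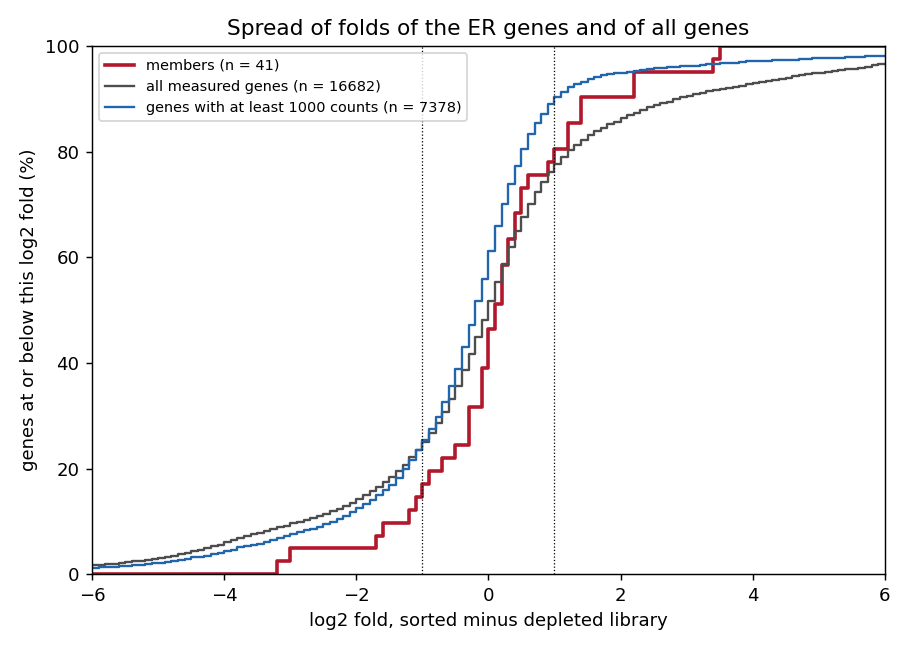
Cumulative share of genes (y axis, %) at or below each log2 fold, sorted minus depleted library (x axis), for the 41 measured members (red), all 16682 measured genes (grey) and the 7378 genes with at least 1000 counts in at least 1 library (blue). The dotted lines mark 2-fold; the red curve climbs mostly between them, where 26 of the 41 members lie.

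How the libraries are scaled moves every fold by the same factor. Across the scalings tried this factor ran from 0.767 to 1.29, so that a fold between 0.777 and 1.305 has no settled direction. That holds for 17 of the 41 members, which are described here as level or by their values alone, while 14 were higher and 10 lower in the sorted library under each scaling. The median of all measured genes moved with the scaling too, to 0.31 on the log2 scale with no scaling factor and to -0.43 when the list of translocation and signal peptidase genes was set to no change. Higher calls under 2.61-fold and lower calls under 2.57-fold are lost under at least 1 of these scalings. The 8 higher and 7 lower members became 10 higher and 4 lower with no scaling factor, and 4 higher and 9 lower when scaled to the translocation list.

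A known promoter element recurred among the members, and is shown here because 10 of the 12 members that carry it or its variant lay within 1.5-fold between the libraries. Of all measured members 53.7% did so, beside 36.2% of all measured genes and 46.7% of genes with at least 1000 counts in at least 1 library. The ER stress response element (ERSE), to which ATF6 binds together with NF-Y, is written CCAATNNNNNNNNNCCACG, where N is any base. RefSeq promoter windows (GRCm38.p6), which run from 250 bases before to 50 bases after a transcript's start, were at hand for 35 members. The element was found on either strand in 10 of them (28.6%), against 39 of 32851 windows of all genes (0.119%). The list was drawn up from genes of this response, so the gap between these shares is no finding about these libraries. Members are counted by gene and all genes by window, and the members' own windows are among the 39. Capitals mark the fixed letters of the element, and each match is printed in the direction in which it reads as ERSE.

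Hspa5, chr2:34772025-34772043, plus strand: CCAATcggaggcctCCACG
Hsp90b1, chr10:86705638-86705656, minus strand: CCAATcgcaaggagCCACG
Hsp90b1, chr10:86705533-86705551, plus strand: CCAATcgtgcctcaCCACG
Calr, chr8:84847075-84847093, plus strand: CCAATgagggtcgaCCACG
Canx, chr11:50325800-50325818, minus strand: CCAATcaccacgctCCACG
Dnajc3, chr14:118937827-118937845, plus strand: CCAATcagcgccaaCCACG
Pdia6, chr12:17266491-17266509, plus strand: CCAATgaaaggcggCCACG
Ero1lb, chr13:12565682-12565700, minus strand: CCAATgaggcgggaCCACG
Creld2, chr15:88819520-88819538, minus strand: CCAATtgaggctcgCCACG
Syvn1, chr19:6046532-6046550, plus strand: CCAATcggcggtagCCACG
Derl3, chr10:75893242-75893260, minus strand: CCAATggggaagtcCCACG

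A shorter variant, ERSE-II, is written ATTGGNCCACG. It was found in 2 members, against 0.0365% of all windows, and its fixed letters are in capitals in the same way.

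Dnajb11, chr16:22857852-22857862, plus strand: ATTGGcCCACG
Herpud1, chr8:94386377-94386387, plus strand: ATTGGgCCACG

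The 250 bases before the start are given for Hspa5, the classic target of the response, and for Ero1lb, the one ERSE member that sorted cells held at 2-fold or more. Both genes lie on the plus strand, at chr2:34771840-34772089 for Hspa5 and chr13:12565633-12565882 for Ero1lb, and capitals again mark the element, which in Ero1lb reads on the opposite strand and so appears as its reverse complement.

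Hspa5: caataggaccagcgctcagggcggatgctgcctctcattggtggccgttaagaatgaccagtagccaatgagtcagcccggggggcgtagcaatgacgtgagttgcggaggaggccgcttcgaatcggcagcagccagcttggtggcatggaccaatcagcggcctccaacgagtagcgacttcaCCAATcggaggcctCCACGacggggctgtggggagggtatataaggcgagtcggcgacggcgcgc
Ero1lb: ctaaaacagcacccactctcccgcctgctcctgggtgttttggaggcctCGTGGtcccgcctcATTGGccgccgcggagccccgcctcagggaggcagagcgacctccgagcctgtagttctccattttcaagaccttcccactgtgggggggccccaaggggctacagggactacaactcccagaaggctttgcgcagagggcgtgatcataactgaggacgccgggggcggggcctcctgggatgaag

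The 12 members with ERSE or ERSE-II in the window had a median fold of 0.966. Apart from the 10 within 1.5-fold, 1 of them (Ero1lb) was higher and 1 (Derl3) lower by 2-fold or more. The 23 members with a window and neither element held 22 measured genes, of which 9 lay within 1.5-fold, 6 were higher and 5 lower, with a median fold of 1.13. The part of either element in these folds was not tested. The UPRE motif TGACGTGG, bound by XBP1 and ATF6, was found in 0 member windows, where 0.676% of all windows hold it. The amino acid response motif TGATGNAAN, bound by ATF4 together with a C/EBP partner, was found in 3 member windows (8.57%), against 3.95% of all windows. Its copies in Cdnf (chr2:3512862-3512870, minus strand), Trib3 (chr2:152344039-152344047, plus strand) and Herpud1 (chr8:94386316-94386324, minus strand) read as follows.

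Cdnf: TGATGaAAg
Trib3: TGATGtAAa
Herpud1: TGATGcAAc

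ERSE, ERSE-II and the complement of UPRE share the letters CCACG, so that one stretch could match more than 1 motif, but the matches in the members lay at separate places. A match describes these letters only, and windows of the same gene's other starts may differ. Atf6, Creb3l1, Derl1, Ern2, Hyou1, Manf and Sec61a1 had no window among those used.

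The large chaperones were among the most abundant members and stood at like levels in both libraries, apart from Hyou1. Hspa5, which encodes BiP, the Hsp70 chaperone that also holds the sensors inactive, stood at 1528 CPM in sorted cells against 1674 CPM in depleted cells, a fold of 0.913 [0.898 to 0.928]. Hsp90b1, the ER's Hsp90, stood at 704 CPM against 702 CPM, a fold of 1.003 [0.979 to 1.03]. Of the lectins that hold glycoproteins for folding, Canx stood at 546 CPM against 535 CPM and Calr at 699.6 CPM against 872 CPM, with folds of 1.02 and 0.802. None of these has a settled direction. Hyou1, which lets BiP exchange its nucleotide, reached 575 CPM in sorted cells against 263 CPM in depleted cells, a 2.18-fold difference [2.12 to 2.25], and 1.67-fold when scaled to the translocation list. Summed, these 5 genes took 4052 CPM in sorted cells against 4046 CPM in depleted cells. Divided by exon length and scaled to a fixed total (TPM), the sums were 3649 TPM against 2031 TPM. In the annotation 10.3% of the exon bases of Hsp90b1 overlap a gene on the other strand, and the sources used here give no strand setting for the counting.

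Hspa5 had the highest level per exon length of all members in the sorted library, at 1353 TPM, ahead of Pdia3 at 1111 TPM and P4hb at 1045 TPM. In the depleted library Agr2 came first at 1335 TPM, ahead of P4hb at 1076 TPM and Hspa5 at 786 TPM. Agr2 was in place 11 in the sorted library. TPM set genes of 1 library side by side, and between the libraries they shift with the lengths of the most abundant genes.

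BiP's co-chaperones leaned to the sorted library in the case of Dnajb9 and Dnajc3. Dnajb9 (ERdj4), which keeps IRE1 bound to BiP, stood at 148 CPM against 76.6 CPM, a fold of 1.93 [1.83 to 2.05]. It did not reach 2-fold, except with no scaling factor (2.49) and with totals that leave out the most abundant genes (2.24). Dnajc3 (p58IPK), which brings clients to BiP and restrains PERK, stood at 322 CPM against 242 CPM, a fold of 1.33. Dnajb11 (ERdj3) and Sdf2l1, which work together to hold unfolded clients soluble, were level, at 130.4 CPM against 147 CPM and at 57.9 CPM against 60.7 CPM.

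**Figure D2:**
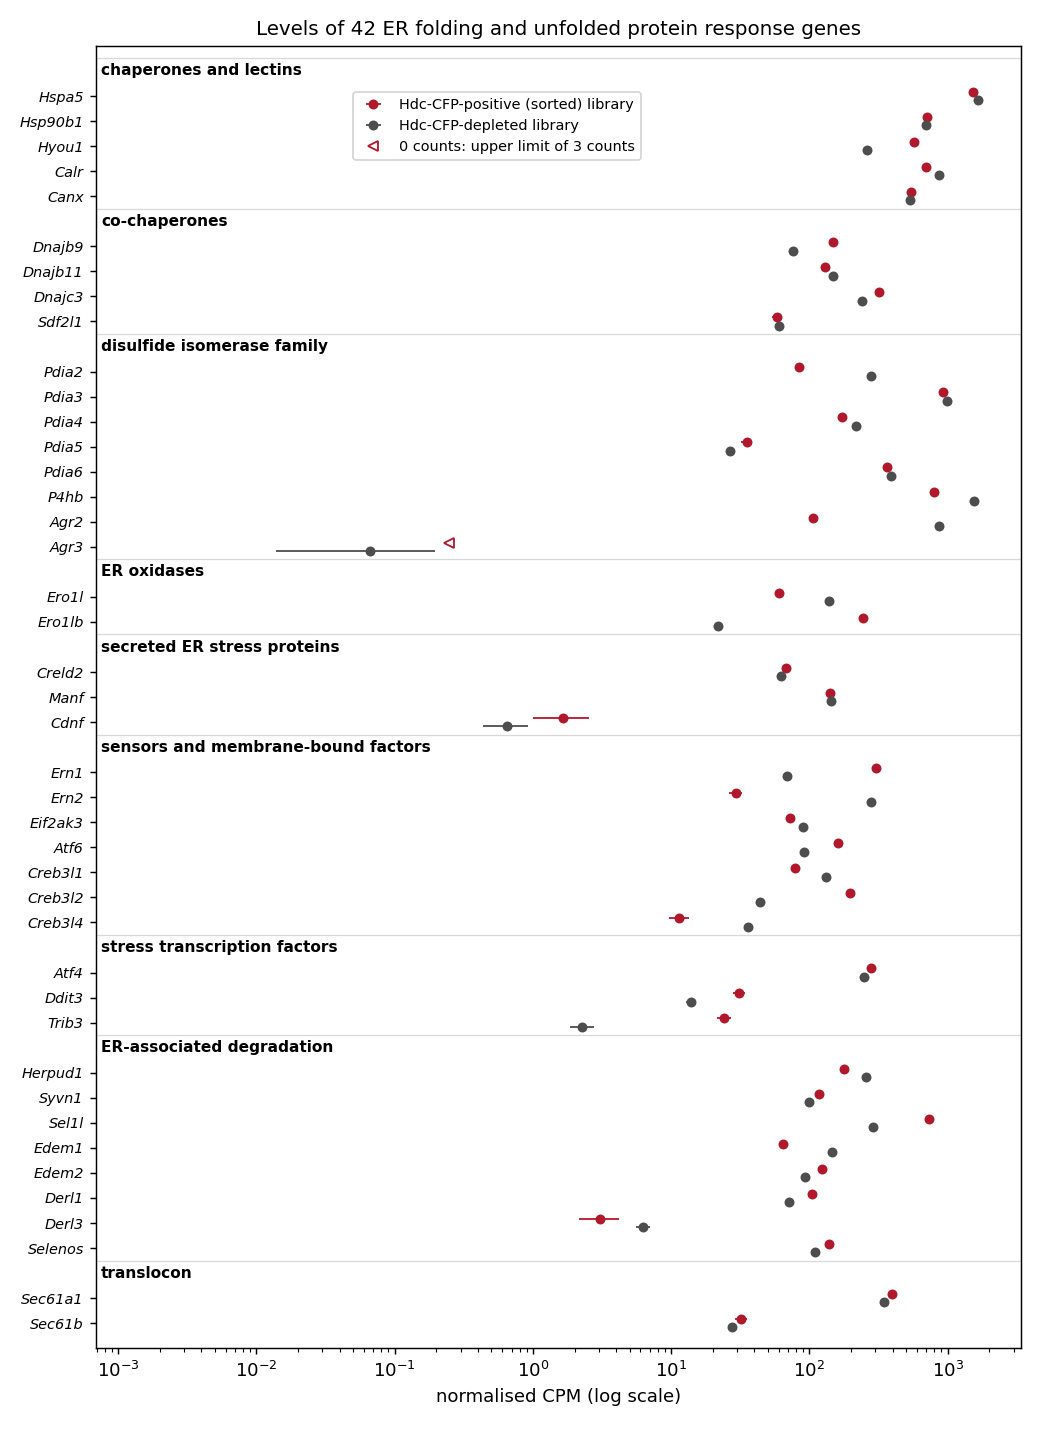
Normalised CPM (x axis, log scale) of the 42 members (y axis, grouped by role) in the sorted library (red) and in the depleted library (grey), with 95% counting intervals as bars, mostly hidden by the points. Most pairs of points lie close together, while Agr2, Ero1lb, Ern1, Ern2, Creb3l2 and Trib3 stand apart; the open triangle is the limit that 0 counts allow for Agr3.

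In the disulfide isomerase family 2 of 7 measured members were lower in sorted cells and 0 were higher, beside 22.3% lower and 21.9% higher of all measured genes. Counts this small, here and for the groups that follow, cannot be told from that background. Agr2, an isomerase that mouse intestine needs to make mucin, stood at 106 CPM in sorted cells against 868 CPM in depleted cells, 8.20-fold lower [7.75 to 8.67]. Pdia2, an isomerase known for its expression in the pancreas, had 84.3 CPM in sorted cells against 279.9 CPM in depleted cells and was 3.32-fold lower [3.12 to 3.54]. P4hb, the archetypal disulfide isomerase and a subunit of prolyl 4-hydroxylase, had 799 CPM against 1550.3 CPM and was 1.94-fold lower [1.90 to 1.98], and passed 2-fold with scaling to the translocation list (a fold of 0.395) and with TMM over all genes (0.477). The remaining isomerases lay within 1.5-fold. Pdia3, which joins the lectins to fold glycoproteins, stood at 932 CPM against 994 CPM, Pdia6 at 364 CPM against 391 CPM, and Pdia4 at 173 CPM against 216 CPM, none with a settled direction. Pdia5, the least abundant of them, stood at 35.2 CPM against 26.8 CPM, a fold of 1.31. Agr3, the relative of Agr2, had 0 counts in sorted cells against 3 in depleted cells. With no reads seen, a level of up to 0.246 CPM (3 counts) remains possible for sorted cells, and a difference in Agr3 was not detectable at this depth. As a family the isomerases took 2492 CPM in sorted cells against 4327 CPM in depleted cells, a summed fold of 0.576, while their summed TPM came to 3328 against 3768. The ratio of P4hb to Agr2 per exon length was 3.40 in sorted cells against 0.806 in depleted cells.

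The surface mucous cell markers, 6 of 6 measured ones lower in the sorted library, moved with Agr2, and 3 of 4 mucous neck cell markers were lower as well (859 CPM against 6995 CPM in sum). Their part in the level of Agr2 was not tested. Beside the lower level of Pdia2, 8 of 9 measured pancreatic acinar markers were higher in the sorted library. Of 6 chief cell markers 3 were lower and 0 higher there (16930 CPM against 66753 CPM in sum). The part of either list in Pdia2 was not tested.

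The enzymes that reoxidise the isomerases exchanged places. Ero1lb, the ERO1 enzyme that mouse islets use for insulin, stood at 242 CPM in sorted cells against 22.0 CPM in depleted cells, 11.02-fold higher [10.2 to 11.9], the highest point estimate of any member. Ero1l, its widely expressed relative, had 60.4 CPM against 139.6 CPM and was 2.31-fold lower [2.14 to 2.50]. Per exon length the ratio of Ero1lb to Ero1l was 3.19 in sorted cells against 0.125 in depleted cells, a 25.4-fold shift that does not depend on scaling. The lower call of Ero1l did depend on it and was lost with no scaling factor (0.557) and with totals that leave out the most abundant genes (0.502). Ero1lb is the gene whose full upstream stretch with an ERSE is printed above. Both the endocrine markers (7 of 7) and the pancreatic acinar markers (8 of 9) were higher in the library in which Ero1lb was higher, and their part in it was not tested.

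Secreted proteins of the ER stress response were level where they were abundant. Creld2 stood at 67.5 CPM in sorted cells against 62.8 CPM in depleted cells, and Manf, which binds BiP and is released under stress, at 142 CPM against 144 CPM. Cdnf, the relative of Manf, was near the limit of the depth with 20 counts in sorted cells against 29 in depleted cells. Its fold of 2.54 has an interval from 1.36 to 4.65, and its higher call was lost when scaled to the translocation list (1.95).

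**Figure D3:**
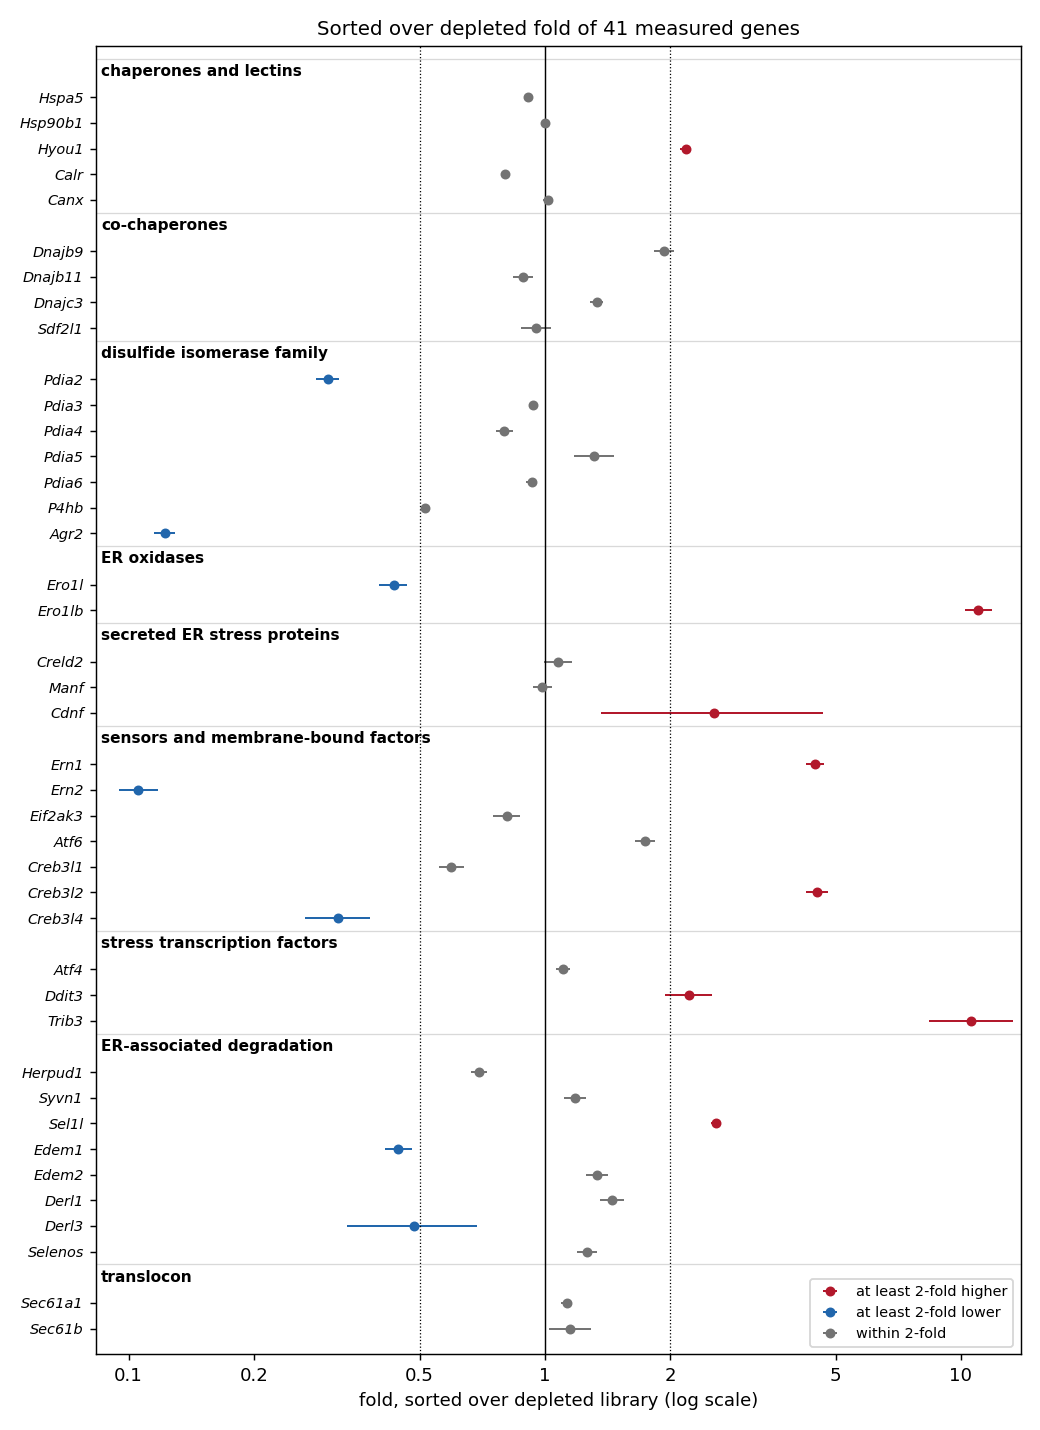
Fold of each of the 41 measured members (y axis, grouped by role), sorted over depleted library (x axis, log scale), with 95% counting intervals. Red points are at least 2-fold higher, blue points at least 2-fold lower and grey points neither; the solid line marks no difference and the dotted lines 2-fold.

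Among the sensors the 2 IRE1 genes differed in opposite directions. Ern1, which encodes the broadly expressed IRE1 alpha, stood at 305 CPM in sorted cells against 68.5 CPM in depleted cells, 4.46-fold higher [4.25 to 4.68]. Ern2, which encodes IRE1 beta, known from mucus-secreting epithelium of the gut and airway, had 29.3 CPM against 277.6 CPM and was 9.47-fold lower [8.52 to 10.5]. Per exon length Ern1 outweighed Ern2 3.77 to 1 in the sorted library, while their ratio was 0.0894 in the depleted library, a 42.2-fold shift and the largest of the 12 pairs of related genes set side by side. These pairs were chosen after the values were seen. The mucous cell markers given beside Agr2 were also lower where Ern2 was lower, and their part was not tested.

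The other sensors moved less. Eif2ak3, which encodes PERK, stood at 72.3 CPM against 89.3 CPM with no settled direction. Atf6 stood at 159.9 CPM against 91.7 CPM, a fold of 1.74 [1.65 to 1.84] that passed 2-fold with no scaling factor (2.24) and with totals that leave out the most abundant genes (2.02). Its ratio to the related Atf6b was much alike in both libraries, at 0.398 in sorted cells against 0.343 in depleted cells. The listed sensors and membrane-bound factors came to 2 higher and 2 lower of 7, near the background of 21.9% higher and 22.3% lower.

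Members of the CREB3-like family, transcription factors that are held in the ER membrane and freed by cleavage as ATF6 is, also split. Creb3l2, which mouse cartilage needs to secrete its matrix, stood at 197 CPM in sorted cells against 43.7 CPM in depleted cells, 4.502-fold higher [4.24 to 4.78]. Creb3l4 had 11.4 CPM against 35.8 CPM and was 3.14-fold lower [2.64 to 3.76]. Creb3l1 (OASIS), which mouse bone uses to secrete collagen, stood at 78.7 CPM against 132 CPM, a fold of 0.596 that passed 2-fold only when scaled to the translocation list (0.457). The ratio of Creb3l2 to Creb3l1 per exon length was 0.895 in sorted cells against 0.118 in depleted cells, and that of Creb3l2 to Creb3l4 was 3.98 in sorted cells against 0.282 in depleted cells.

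**Figure D4:**
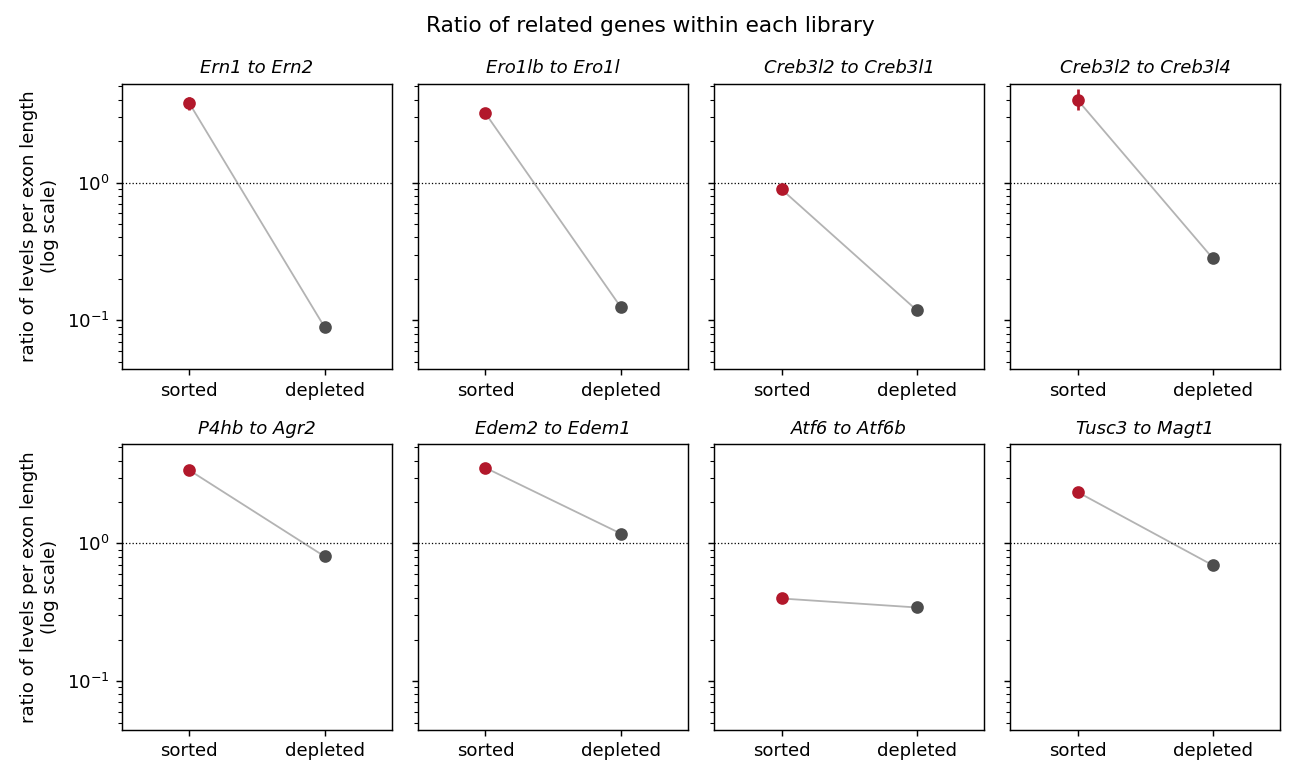
Ratio of the level per exon length of 2 related genes (y axis, log scale) within the sorted library (red, left) and within the depleted library (grey, right), with 95% counting intervals, for 8 pairs. Ern1 to Ern2, Ero1lb to Ero1l, Creb3l2 to Creb3l4, P4hb to Agr2 and Tusc3 to Magt1 lie above 1 in the sorted library. In the depleted library these pairs lie below 1, while Atf6 to Atf6b barely moves.

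Of the members downstream of PERK, Atf4 was level while Ddit3 and Trib3 were higher in sorted cells. Atf4, whose protein is raised mainly by translation, stood at 277 CPM against 250.3 CPM, a fold of 1.11. Ddit3 (CHOP), which ATF4 induces under lasting stress, stood at 31.0 CPM in sorted cells against 13.96 CPM in depleted cells, 2.22-fold higher [1.95 to 2.52], and 1.70-fold when scaled to the translocation list. Trib3, a pseudokinase induced by ATF4 and CHOP, stood at 24.0 CPM against 2.27 CPM, 10.6-fold higher [8.40 to 13.4], from 292 counts in sorted cells against 102 in depleted cells. The window of Trib3 holds the amino acid response motif printed above, as do those of Cdnf (a fold of 2.54) and Herpud1 (0.695). The window of Ddit3 does not in the stretch used, and the motif's part in these levels was not tested.

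The ER-associated degradation genes gave 1 higher and 2 lower of 8, again near the 21.9% and 22.3% of all measured genes. Sel1l, the membrane partner of the ubiquitin ligase HRD1, stood at 739 CPM in sorted cells against 287 CPM in depleted cells, 2.58-fold higher [2.51 to 2.65]. With scaling to the translocation list it came to 1.97-fold. Syvn1, which encodes HRD1 itself, stood at 118 CPM against 99.6 CPM, a fold of 1.18 with no settled direction. Edem1, a mannosidase-like factor that marks glycoproteins for degradation, had 64.8 CPM against 145.6 CPM and was 2.25-fold lower [2.09 to 2.42], whereas Edem2, which starts the trimming, stood at 123 CPM against 92.3 CPM, a fold of 1.33. Their ratio, Edem2 to Edem1 per exon length, was 3.54 in sorted cells against 1.18 in depleted cells. Among the derlins, which help move proteins back across the membrane, Derl1 stood at 104 CPM against 71.7 CPM and Derl3 at 3.04 CPM against 6.26 CPM. Derl3, seen in professional secretory cells such as pancreatic acinar and plasma cells, rested on 37 counts in sorted cells against 281 in depleted cells, with a 2.06-fold lower level [1.46 to 2.99]. The lower calls of Edem1 and Derl3 were lost with no scaling factor (0.572 and 0.625) and with totals that leave out the most abundant genes (0.516 and 0.562). Herpud1, which organises the HRD1 complex, stood at 179 CPM against 257 CPM, a fold of 0.695, and Selenos, a selenoprotein that recruits the extracting ATPase, at 139 CPM against 109.8 CPM. Of 5 measured B and plasma cell markers 1 was higher and 2 were lower in sorted cells. The whole list summed to 81.7 CPM in sorted cells against 299 CPM in depleted cells, most of it Sdc1, which epithelia also express, while 8 of 9 measured pancreatic acinar markers were higher in sorted cells. The part of either list in Derl3 was not tested.

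Of the Sec61 channel, the 2 members Sec61a1 and Sec61b were level. Sec61a1, its pore, stood at 394 CPM in sorted cells against 349 CPM in depleted cells, and Sec61b, a small subunit, at 31.9 CPM against 27.7 CPM. The channel genes Sec61g and Sec61a2, which are not members, were 1.67-fold [1.25 to 2.22] and 2.36-fold higher in sorted cells. Both are named with their values known. Of the members, Sec61b alone shared over 10% of its 50-base words (17.4%) with other genes, so reads of it may be missing from the counts. Overlaps with a gene on the other strand covered 8.85% of the exon bases of Manf, 8.16% of Sec61a1, 8.05% of Eif2ak3 and 4.73% of Ddit3, of which 6.13% also lie under another entry on the same strand, and with the counting's strand setting not given, such genes cannot be told from their partners there.

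Other genes of the same pathways were read from 7 further lists holding 147 measured genes, of which 18 were at least 2-fold higher and 16 at least 2-fold lower in sorted cells, or 32 and 10 with no scaling factor. The 18 and 16 are smaller shares than the 21.9% higher and 22.3% lower of all measured genes, which also stand as the background of each list that follows. Among genes with at least 1000 counts in at least 1 library, 9.64% were higher and 25.4% lower. Beside these the share of higher pathway genes was not smaller, and the pathway genes were not read apart at that limit. Genes of translocation and signal peptidase gave 4 higher and 1 lower of 22, with a median log2 difference of 0.38. The 4 were Sec61a2 (2.36-fold), Srp9 (2.43-fold), Srp14 (2.07-fold) and Spcs2 (2.01-fold) and the 1 was Tram2 (2.14-fold lower), all chosen after their values were seen. The abundant translocon genes Ssr1, Ssr3 and Tram1 stayed within 1.5-fold, and the signal peptidase subunit Spcs3 was 1.93-fold higher. Genes of N-glycosylation and glucose trimming gave 2 higher and 0 lower of 16. Uggt2, a relative of the glucosyltransferase that checks folding, was 6.15-fold higher [4.76 to 7.97], at 13.6 CPM against 2.20 CPM, and the ratio of Uggt1 to Uggt2 per exon length was 16.7 in sorted cells against 92.9 in depleted cells. Tusc3, an oxidoreductase subunit of the oligosaccharyltransferase chosen here with its value known, was 2.65-fold higher, and its ratio to the alternative subunit gene Magt1 per exon length was 2.36 in sorted cells against 0.693 in depleted cells. The core subunit genes Rpn1, Rpn2 and Stt3a and the glucosidase gene Ganab stayed within 1.5-fold. COPII export and retrieval, the next step on the way to the Golgi, had 0 higher and 0 lower of 21, and 19 of these lay within 1.5-fold.

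Folding factors outside the list gave 4 higher and 9 lower of 26. Tmx4, a membrane-bound thioredoxin-like protein, was 4.74-fold higher [4.52 to 4.98], at 301 CPM against 63.5 CPM. The lower ones included Qsox1, a sulfhydryl oxidase of the secretory pathway (4.19-fold lower, 50.1 CPM against 210.1 CPM), the prolyl isomerase gene Ppic (4.68-fold lower), the calcium-binding protein gene Calu (3.23-fold lower) and the isomerase gene Txndc5 (2.31-fold lower, 240.2 CPM against 555 CPM). Clgn, a calnexin relative known from testis, had 0 counts in sorted cells against 42 in depleted cells and was at least 3.80-fold lower against the limit of 3 counts per library. Erp27, known from the pancreas, had 8 counts in sorted cells against 2 in depleted cells and was not measured.

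Beyond the sensors, genes of unfolded protein response signalling gave 1 higher and 2 lower of 14. Xbp1, whose mRNA IRE1 splices, stood at 638 CPM in sorted cells against 341 CPM in depleted cells, a fold of 1.87 [1.82 to 1.92] that counts both spliced and unspliced forms. Bhlha15 (MIST1), a factor of serous secretory cells that XBP1 induces, stood at 25.3 CPM against 13.3 CPM, a fold of 1.90. Mbtps1, the protease that frees ATF6, was 1.88-fold higher. Wfs1, whose loss in humans causes Wolfram syndrome and which mouse beta cells need, was 3.24-fold higher. Ppp1r15b, a phosphatase subunit that reverses PERK's action, was 2.82-fold lower and Tmbim6, an ER membrane protein that limits IRE1 signalling, 2.05-fold lower. Wfs1 and Mbtps2 were named after their values were seen. Of 23 other degradation genes 18 lay within 1.5-fold, and 0 were at least 2-fold lower.

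Targets of the integrated stress response and of amino acid shortage split, with 6 higher and 4 lower of 25 and a median log2 difference of 0.036. Nupr1, a stress-induced nuclear protein, stood at 367 CPM in sorted cells against 18.6 CPM in depleted cells, 19.8-fold higher [18.3 to 21.3]. Atf5 was 10.6-fold higher [9.44 to 11.9] and Slc7a5, a transporter of large neutral amino acids, 7.42-fold higher [6.82 to 8.08]. In the other direction, Slc7a11, the cystine transporter, was 10.1-fold lower at 2.14 CPM against 21.5 CPM, and Atf3, a factor that also answers to tissue dissociation, 4.37-fold lower. Trib3 and Ddit3 were thus higher together with Nupr1 and Atf5 but not with Slc7a11 and Atf3. Of 12 genes listed for dissociation stress, 1 was higher and 5 were lower in the sorted library (4905 CPM against 9134 CPM in sum), and their part in these values was not tested.

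The listed secreted products summed to 113709 CPM in sorted cells against 228100 CPM in depleted cells, and their makeup differed. Granins and peptide hormones took 77015 CPM in sorted cells against 761 CPM in depleted cells, mostly Chga (63985 CPM against 164 CPM). Mucus and gastrokine genes took 4368 CPM in sorted cells against 155217 CPM in depleted cells, and secreted proteins of chief cells, led by Pgc, 16620 CPM against 66374 CPM. Pancreatic enzyme genes took 15706 CPM in sorted cells against 5748 CPM in depleted cells. The 42 members together took 10798 CPM in sorted cells against 11719 CPM in depleted cells, a summed fold of 0.921 that turned to 1.19 with no scaling factor and to 1.42 with TPM. As a share of gene counts they took 1.22% in sorted cells against 1.03% in depleted cells. For every 100 counts of the listed secreted products, the members had 9.50 counts in sorted cells against 5.14 in depleted cells, a ratio within each library that does not depend on scaling but does depend on which products are listed.

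**Figure D5:**
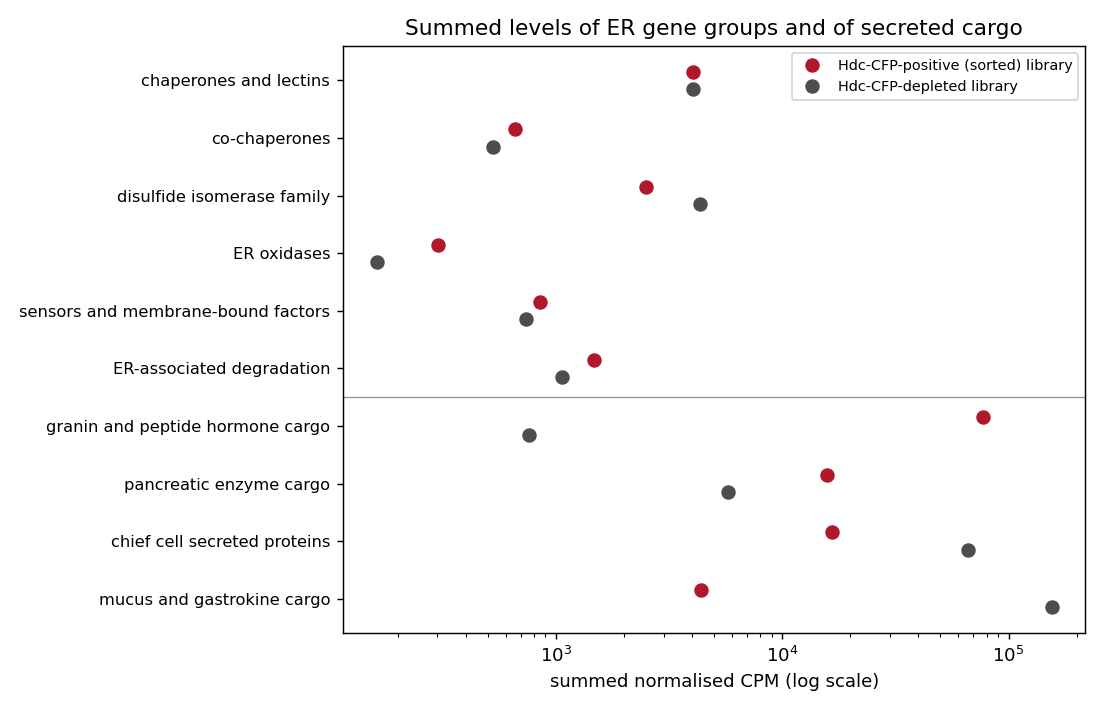
Summed normalised CPM (x axis, log scale) of 6 groups of members (above the line) and of 4 groups of secreted products (below it) in the sorted library (red) and the depleted library (grey). The isomerases reach 2492 CPM against 4327 CPM and the ER oxidases 303 CPM against 162 CPM, while granin and peptide hormone genes reach 77015 CPM against 761 CPM and mucus and gastrokine genes 4368 CPM against 155217 CPM.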

How the data were processed

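Each library has 1 deposited table of raw, unscaled counts of reads per Ensembl gene. The submitters' processing notes name TopHat2 2.0.07 for alignment to mm9 and HTSeq for counting, and per the labels' protocols the library kit was TruSeq RNA. The sources used here give no HTSeq version, strand setting, annotation release or read length. The 5 summary entries that name no gene stayed out of all totals. They held reads outside genes (9.20% of alignments for sorted against 4.91% for depleted cells), ambiguous reads (1.45% against 1.11%) and non-unique alignments (24.2% against 34.3%), so reads of near-identical or overlapping genes are missing from the counts.

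Gene identifiers were joined to GENCODE M21 for symbols, exon lengths and overlaps. M21 is built on GRCm38, so no coordinates are given for the counts; promoter coordinates are RefSeq's, on GRCm38.p6. Counts were scaled with edgeR 4.0.16 (R 4.3.3) TMM factors over genes with at least 10 counts in at least 1 library, 1.13 for sorted cells and 0.882 for depleted cells. A fold is the ratio of normalised CPM, sorted over depleted, with an exact (Clopper-Pearson) 95% interval, and CPM have exact Poisson intervals. For medians of log2 folds, 0.5 was added to every count, scaled by library size. TPM divide counts by merged exon length, and 5039 identifiers with no length (0.489% of sorted and 0.392% of depleted counts) were left out. The computation of folds, intervals and calls was checked on simulated counts that held counting error only. That check cannot show how far replicate samples would vary. Tables were computed with Python 3.11.15, scipy 1.17.1 and pandas 2.3.3.

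The members and lists were chosen with earlier results of these data known. Every member is accounted for. Of the other lists the text names up to 4 genes with the most CPM, those at 4-fold or more with an interval beyond 2, and a few fixed markers; any other gene is marked as named with its value known, apart from Sdc1 and markers with few counts, to which the same applies. Of 152 further pathway genes listed, 151 were found. Protein sequences are not analysed here, and the values of 2 listed genes are not reported here. Alternatives were upper-quartile factors, DESeq2 1.42.0 size factors, totals with no factor, totals without the 20 most abundant genes of each library, scaling to the translocation list, other fold and count limits, another prior count, longest-transcript lengths and, added after seeing the data, TMM over all genes, a limit of 1000 counts and sums with no factor.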

Additional observations from a re-analysis of the deposited data

How the results depend on the processing

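The main count of 8 members higher and 7 lower depended on scaling. Members lower came to 4 with no scaling factor and to 4 with totals without the 20 most abundant genes of each library, and members higher to 4 when scaled to the translocation list. A fold of at least 4 with an interval beyond 2 left 4 higher and 2 lower, and a limit of 1000 counts left 5 higher, since fewer genes were then counted. Pathway genes higher came to 32 and lower to 10 with no factor, against 18 and 16. The median log2 difference of 0.028 became 0.39 with no factor (all genes 0.31), 0.24 without the 20 most abundant genes (all genes 0.16), 0.069 with upper-quartile factors, -0.082 with TMM over all genes and -0.36 when scaled to the translocation list (all genes -0.43). Its distance from the median of all genes is fixed by construction. The summed fold of 0.921 became 1.42 with TPM, 1.07 without the 20 most abundant genes and 1.19 with no factor. Scaling multiplies all folds alike, which by construction moves these values; the cause of the value with TPM was not tested.

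Of the 15 members called, 8 kept their call under each scaling tried (Pdia2, Agr2, Ero1lb, Ern1, Ern2, Creb3l2, Creb3l4 and Trib3). In all 11 members changed call under at least 1 scaling, each named with its value in the report, and of 246 recomputed folds 152 left the counting interval of the first value and 0 of the called ones turned direction. DESeq2 size factors, count limits of 1 and 50, and leaving out the 1 member with over 10% shared words changed no count of members by over 1.5 times, and a prior count of 2 left the median log2 difference at 0.028. With longest-transcript lengths, 9 of the 10 most abundant members stayed in each library. No paired analysis was possible because each group held 1 library, and for the same reason no replicate could be left out. Depth limits Agr3, Cdnf and Derl3, which rest on 37 counts or fewer in the sorted library.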

Other observations

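The genes listed for dissociation stress, whose products include cytosolic heat-shock proteins, did not move as one group. Hspb1, a small heat-shock protein, stood at 89.0 CPM in sorted cells against 2.58 CPM in depleted cells, 34.5-fold higher [28.4 to 42.1]. The inducible Hsp70 genes Hspa1a and Hspa1b stood at 41.4 CPM against 204.7 CPM and at 109 CPM against 548 CPM, 4.94-fold and 5.03-fold lower in the sorted library, and their co-chaperone gene Dnajb1 at 165 CPM against 523 CPM, 3.16-fold lower (named after its value was seen). Reads of Hspa1a and Hspa1b, which are nearly identical, may be split or lost. The ER's own Hsp70, Hspa5, was level between the same libraries.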
